A study of Mus musculus and Homo sapiens with 9 samples.

Results

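Apol11b, Btnl10, Pkhd1l1, Ctse and Aldh1a1 are 5 protein-coding genes of the mouse that were chosen by their higher counts in CD3+ T cells of Irf2bp2 knockout mice, out of 43432 rows of the count table and 15350 genes tested. Because the knockout contrast itself picked them, their differences between the groups are given as values and were not tested. The libraries came from magnetically sorted splenic CD3+ T cells of Vav-iCre+/-;Irf2bp2fl/fl mice (2 libraries, called knockout here) and of control mice (3 libraries), which are wild type in the labels and Vav-iCre-/-;Irf2bp2fl/fl in the study's methods. How many animals a library holds is not given in the sources used here. By those methods the floxed Irf2bp2 alleles were shared by all 5 libraries and the Cre transgene was carried by the knockout alone. Vav-iCre is a Cre recombinase that is active throughout the blood-forming lineage, so the gene was removed from other blood cells of these mice as well as from T cells. Animals of this cross were killed when 6 weeks old. The same series holds RNA-seq of J.gamma1, a derivative of the Jurkat T-cell leukemia line, with a control hairpin (sh-NC, 2 libraries) or a hairpin against IRF2BP2 (sh-IRF2BP2, 2 libraries), which played no part in the choice of the genes.

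The 5 genes encode proteins of unlike kinds. Apol11b belongs to the apolipoprotein L family, lipid-binding proteins of which human APOL1 kills trypanosomes, and which in the mouse lie side by side in a gene cluster. Btnl10 is a butyrophilin-like member of the immunoglobulin superfamily, a group of membrane proteins that includes regulators of T cells and the erythroid blood group protein Ermap. Pkhd1l1 encodes fibrocystin-L, a very large membrane protein related to the product of the polycystic kidney disease gene Pkhd1. Ctse encodes cathepsin E, an intracellular aspartic protease known from red blood cells, stomach and antigen-presenting cells. Aldh1a1 encodes a retinaldehyde dehydrogenase, which makes retinoic acid and is widely used as a marker of stem and progenitor cells.

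The total counts lay between 16668577 and 37177523 per mouse library, with control replicate 3 the shallowest. Irf2bp2 (ENSMUSG00000051495) had 4145, 4594 and 1915 counts in the controls and 0 and 0 in the knockout libraries. At 0 counts a level of up to 3 counts is possible, or 0.0783 and 0.0845 CPM in these 2 knockout libraries, a limit for counting error only. The 18 T cell markers were all present, with summed levels of 8974, 10284 and 8760 CPM (counts scaled to library depth with TMM) in the controls and 6563 and 6899 CPM in the knockout libraries. In the quasi-likelihood test of edgeR, whose adjusted p (Benjamini-Hochberg) is given throughout, 2.47% of the genes tested were called higher in the knockout and 0.111% lower. A call required an adjusted p below 0.05 together with a change of at least 1 on the log2 scale. In 18.2% of the genes both knockout libraries lay above all 3 controls, and in 17.8% both lay below. These shares belong to the contrast that chose the 5 genes, so nothing is read from the genes' own place in them.

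The sequences before the start sites of the genes are shown because the genes were picked for being higher in the same libraries, and because short words read by blood-cell transcription factors can be seen in them directly. RefSeq promoters (GRCm38.p6) were given here for 3 of the 5 genes. Each stretch runs 5′ to 3′ on the gene's strand from 250 bases before the start site to 30 bases after it. Capitals mark GATA words, spelled AGATAA and also AGATAG, then TGATAA and also TGATAG. They also mark E-box words, spelled CAGCTG and also CAGATG, and the KLF word CACCC. Every word was read on either strand and searched singly, with no set distance between words. The stretches lie at chr15:77643257-77643536 (minus strand) for Apol11b, at chr11:58917658-58917937 (plus strand) for Btnl10, and for Aldh1a1 at chr19:20492333-20492612 (upstream start site, near the start of the annotated gene) and chr19:20601718-20601997 (internal start site, inside the annotated gene), both on the plus strand.
Apol11b: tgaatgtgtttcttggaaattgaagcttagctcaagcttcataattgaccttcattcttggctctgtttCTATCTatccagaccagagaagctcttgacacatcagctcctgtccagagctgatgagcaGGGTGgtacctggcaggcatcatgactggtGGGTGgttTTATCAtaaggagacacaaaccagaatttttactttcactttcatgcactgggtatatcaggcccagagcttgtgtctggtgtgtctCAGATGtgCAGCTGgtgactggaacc
Btnl10: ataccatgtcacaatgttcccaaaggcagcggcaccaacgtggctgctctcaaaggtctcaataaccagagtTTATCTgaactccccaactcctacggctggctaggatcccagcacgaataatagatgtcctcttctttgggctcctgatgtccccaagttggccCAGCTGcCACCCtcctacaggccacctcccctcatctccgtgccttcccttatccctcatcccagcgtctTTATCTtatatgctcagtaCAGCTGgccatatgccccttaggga
Aldh1a1, upstream start site: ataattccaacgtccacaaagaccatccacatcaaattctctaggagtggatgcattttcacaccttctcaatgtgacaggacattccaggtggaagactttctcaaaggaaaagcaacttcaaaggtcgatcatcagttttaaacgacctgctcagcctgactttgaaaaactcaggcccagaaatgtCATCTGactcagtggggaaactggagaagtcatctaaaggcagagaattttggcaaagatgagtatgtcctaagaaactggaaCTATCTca
Aldh1a1, internal start site: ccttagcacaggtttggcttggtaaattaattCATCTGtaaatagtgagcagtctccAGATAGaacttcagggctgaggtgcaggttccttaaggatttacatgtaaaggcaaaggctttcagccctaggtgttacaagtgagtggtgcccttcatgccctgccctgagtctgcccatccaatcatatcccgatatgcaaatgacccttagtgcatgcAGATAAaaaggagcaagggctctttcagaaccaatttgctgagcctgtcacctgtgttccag

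GATA words are the sites that GATA1 and its relatives bind, E-boxes are read by proteins such as TAL1, and CACCC boxes by KLF1 and other Krüppel-like factors. In Apol11b the GATA words began 181 and 83 bases before the start site and the CACCC boxes 121 and 91 bases before it, and E-boxes began at bases 5, 13 and 44 of the transcript, the last of them past the stretch shown. In Btnl10 the GATA words began 178 and 14 bases before the start site, a CACCC box began 77 bases before it, and E-boxes began 84 bases before it and at base 6 of the transcript. The promoter of Aldh1a1 at its upstream start site had no GATA word before that site, with 1 beginning at base 23 of the transcript, and an E-box began 61 bases before the site. At the internal start site of Aldh1a1 the GATA words began 193 and 32 bases before it and an E-box 218 bases before it. Over the full 300 bases of the table, which end 50 bases after the start site, the 3 genes had 5 promoter entries, of which the 2 of Btnl10 overlap. All 5 entries held a GATA word, and so did 29.8% of the 32851 promoters in the table. An E-box word was also in all 5, against 30.6% of all promoters, and a CACCC box was in 3, against 57.5%. The NFE2 word TGAGTCA was found in 1 entry (5.2% of all promoters), where it overlapped an E-box, and the RUNX word TGTGGT in 1 (16.8%). The IRF word AANNGAAA was in 2 entries, against 23.9% of all promoters. The ETS word CCGGAA (14.9%) and the TATA word TATAAA (13.6%) were in none of the 5, which says only that these letters are not in these windows. These matches are a description of the letters and not of binding.

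Apol11b (ENSMUSG00000091694, chr15:77633946-77643286 of mm10, minus strand, 6 exon blocks) had the largest difference of the 5 genes. It had 95, 87 and 5 counts in controls 1 to 3 and 5543 and 4350 counts in the knockout libraries. Scaled to depth, this was 2.56, 2.41 and 0.313 CPM against 145 and 123 CPM. The groups did not overlap, and control replicate 3 stood at 0.126 of the mean of the other 2 controls. The means were 1.76 ± 1.26 CPM (SD, n = 3) and 134 ± 15.7 CPM (SD, n = 2), a log2 fold change of 6.12, which ranked 21 of all genes tested. Of the transcript words of 75 bases in Apol11b, which are shorter than the reads, 7.79% also occur in its neighbours Apol11a, Apol10a or Apol10b, so that a part of the reads could be counted for either gene.

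Btnl10 (ENSMUSG00000020490, chr11:58917908-58927158, plus strand, 7 exon blocks) had 113, 93 and 13 counts in the controls and 1807 and 1946 counts in the knockout libraries. Its levels were 3.05, 2.57 and 0.813 CPM in the controls and 47.2 and 54.8 CPM in the knockout. As for Apol11b, control replicate 3 was the lowest, at 0.289 of the mean of the other controls, and the groups did not overlap. The means of 2.15 ± 1.18 CPM (SD, n = 3) and 51.0 ± 5.40 CPM (SD, n = 2) gave a log2 fold change of 4.50.

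Pkhd1l1 (ENSMUSG00000038725, chr15:44457494-44601369, plus strand, 75 exon blocks) is the longest of the 5 transcripts, with 18536 bases of exon. It had 85, 76 and 26 counts in the controls and 874 and 1098 counts in the knockout libraries. The levels were 2.29, 2.10 and 1.63 CPM against 22.8 and 30.9 CPM. Here the 3 controls lay close together, with a mean of 2.01 ± 0.344 CPM (SD, n = 3), and the knockout mean was 26.9 ± 5.73 CPM (SD, n = 2), a log2 fold change of 3.72.

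Ctse (ENSMUSG00000004552, chr1:131638306-131675505, plus strand, 10 exon blocks) was the single gene of the 5 with a sizeable level in controls. It had 1429, 1364 and 457 counts there, and 6750 and 7287 counts in the knockout libraries. In CPM this was 38.6, 37.7 and 28.6 against 176 and 205. The means were 35.0 ± 5.54 CPM (SD, n = 3) and 191 ± 20.5 CPM (SD, n = 2), and the log2 fold change of 2.44 was the smallest of the 5, ranking 292 of the genes tested.

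Aldh1a1 (ENSMUSG00000053279, chr19:20492715-20643465, plus strand, 21 exon blocks) had 145, 116 and 47 counts in the controls and 1623 and 1559 counts in the knockout libraries. The levels were 3.91, 3.21 and 2.94 CPM against 42.4 and 43.9 CPM. Its libraries were the most even of the 5 genes, with 3.35 ± 0.503 CPM (SD, n = 3) and 43.1 ± 1.09 CPM (SD, n = 2), and its log2 fold change was 3.67. It shares 1.01% of its transcript words of 75 bases with Aldh1a7.

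**Figure D1:**
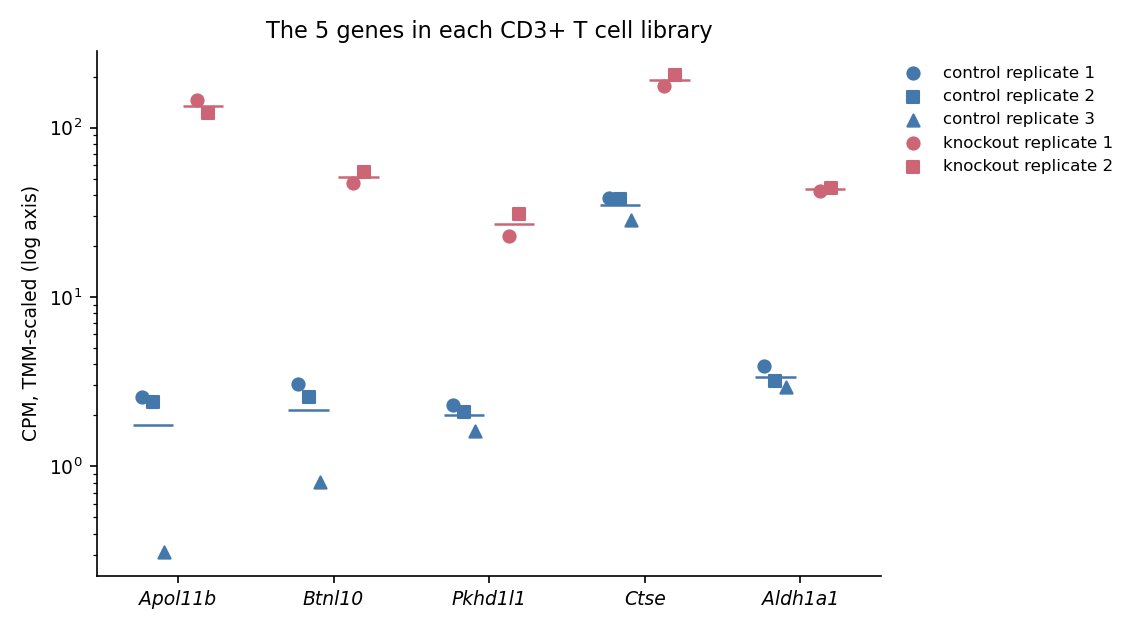
CPM of the 5 genes in each of the 3 control and 2 knockout libraries on a log axis, with a bar at each group mean. Every knockout point lies above every control point of its gene, and the triangle of control replicate 3 falls to 0.313 CPM for Apol11b and 0.813 CPM for Btnl10.

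The lowest knockout library exceeded the highest control by 47.8 times for Apol11b, 15.5 times for Btnl10, 10.8 times for Aldh1a1, 9.95 times for Pkhd1l1 and 4.57 times for Ctse. The ratio of control replicate 3 to the other controls, so low for Apol11b and Btnl10, was 0.740 for Pkhd1l1, 0.749 for Ctse and 0.826 for Aldh1a1. Compared per length, as TPM from the exon lengths, the order in the controls was Ctse (30.3 ± 3.36), Apol11b (1.92 ± 1.35), Aldh1a1 (1.87 ± 0.262), Btnl10 (1.21 ± 0.638) and Pkhd1l1 (0.297 ± 0.0399), each as the mean and SD of 3 libraries. Apol11b, Aldh1a1 and Btnl10 did not differ from each other beyond their spread. In the knockout the order in TPM was Ctse (179 ± 20.3), Apol11b (161 ± 18.0), Btnl10 (31.6 ± 3.53), Aldh1a1 (26.0 ± 0.807) and Pkhd1l1 (4.31 ± 0.945), with n = 2. There Ctse and Apol11b lay within their spread of each other. Apol11b therefore stood beside Aldh1a1 in the controls and beside Ctse in the knockout.

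Genes of the red cell lineage were higher in the same libraries. Of 31 erythroid markers measured, such as the anion exchanger Slc4a1, the membrane skeleton gene Sptb and the transcription factors Gata1 and Klf1, edgeR called 19 higher and 0 lower, and in 30 of them the groups did not overlap. Their median log2 fold change was 2.96, against -0.02 over all genes tested. Summed over the 27 markers without the globins, the level was 380, 544 and 251 CPM in the controls and 2570 and 3130 CPM in the knockout libraries. The 4 globins summed to 2169, 1150 and 557 CPM against 3690 and 5317 CPM. Both sums were lowest in control replicate 3. Their part in the levels of the 5 genes was not tested, and in bulk RNA more cells of a type and more RNA per cell cannot be told apart. The number of erythroid markers called was 3, 7 and 4 without control replicate 1, knockout replicate 1 and knockout replicate 2, and 24 and 22 without control replicates 2 and 3. DESeq2 called 25.

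Set against this marker sum, a scale added after values were seen, the 5 genes had unlike ratios. Each ratio carries the gene's own difference between the groups, on which it was chosen. Nothing is therefore read from the size or order of the ratios. For Apol11b the level per 1000 CPM of the 27 erythroid markers was 6.74, 4.42 and 1.25 in the controls and 56.3 and 39.1 in the knockout, so that the ratio was 11.5 times higher in the mean. Btnl10 stood at 8.02, 4.73 and 3.25 against 18.4 and 17.5, or 3.37 times higher. Pkhd1l1 stood at 6.03, 3.86 and 6.49 against 8.88 and 9.88, and Aldh1a1 at 10.3, 5.89 and 11.7 against 16.5 and 14.0. These 2 ratios were 1.72 and 1.64 times higher, a difference much smaller than that of the levels themselves. Ctse was below its controls on this scale, with 101, 69.3 and 114 per 1000 CPM in the controls and 68.6 and 65.6 in the knockout, which is 0.707 of the control mean. The lowest control and the highest knockout library of Ctse lay next to each other. This direction turned when the globins were counted in: per 1000 CPM of all 31 markers Ctse stood at 15.1, 22.3 and 35.4 in the controls and 28.1 and 24.3 in the knockout, with overlap of the groups and a ratio of 1.08, and per 1000 CPM of the globins alone the ratio was 1.27. For the other 4 genes the ratio was larger with the globins, at 20.1 for Apol11b, 5.65 for Btnl10, 2.64 for Pkhd1l1 and 2.54 for Aldh1a1, without overlap.

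**Figure D2:**
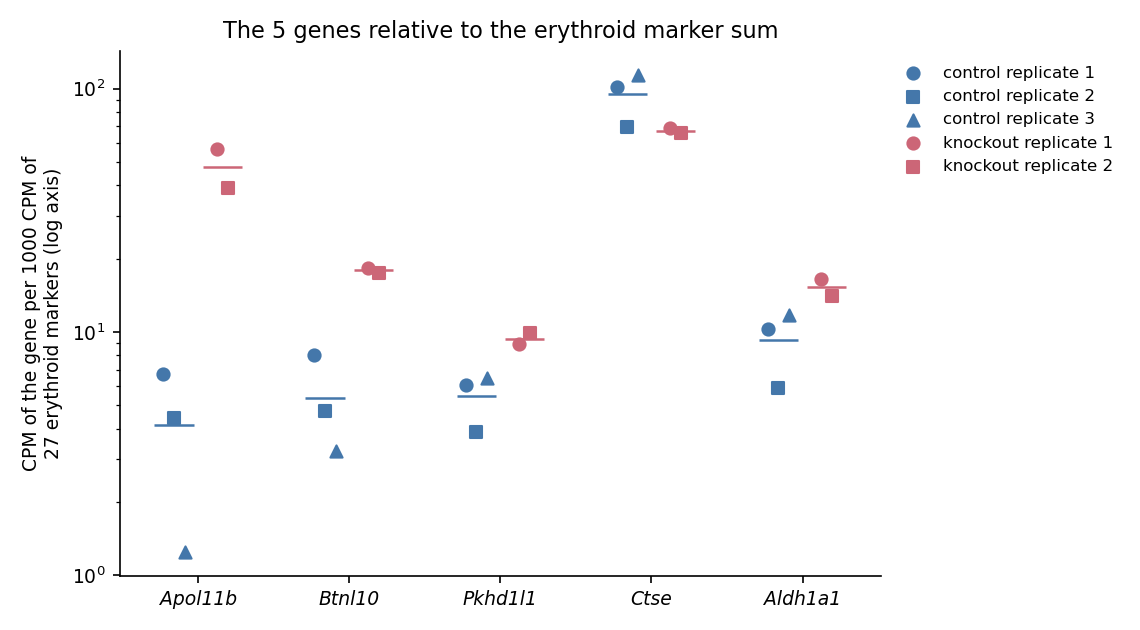
Level of each gene per 1000 CPM of 27 erythroid markers (globins left out) in each library, on a log axis, with a bar at each group mean. Apol11b and Btnl10 lie furthest above their controls in the knockout, Pkhd1l1 and Aldh1a1 less so, and the 2 knockout points of Ctse lie just below its controls, which with the globins counted in they do not.

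The fold of the mean CPM was 75.9 for Apol11b and 23.8 for Btnl10, and 0 of the 31 erythroid markers had a larger fold than either. The fold of Pkhd1l1 was 13.4, exceeded by 4 markers, and that of Aldh1a1 was 12.9, exceeded by 7 markers. The fold of Ctse was 5.46, with 22 of the 31 markers above it. The erythroid marker of the largest fold was Sptb, with 21.3, and Bpgm, which makes a regulator of oxygen release in red cells, had a log2 fold change of -0.00. The 5 genes were chosen on this contrast, so nothing is read from their place among the markers.

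**Figure D3:**
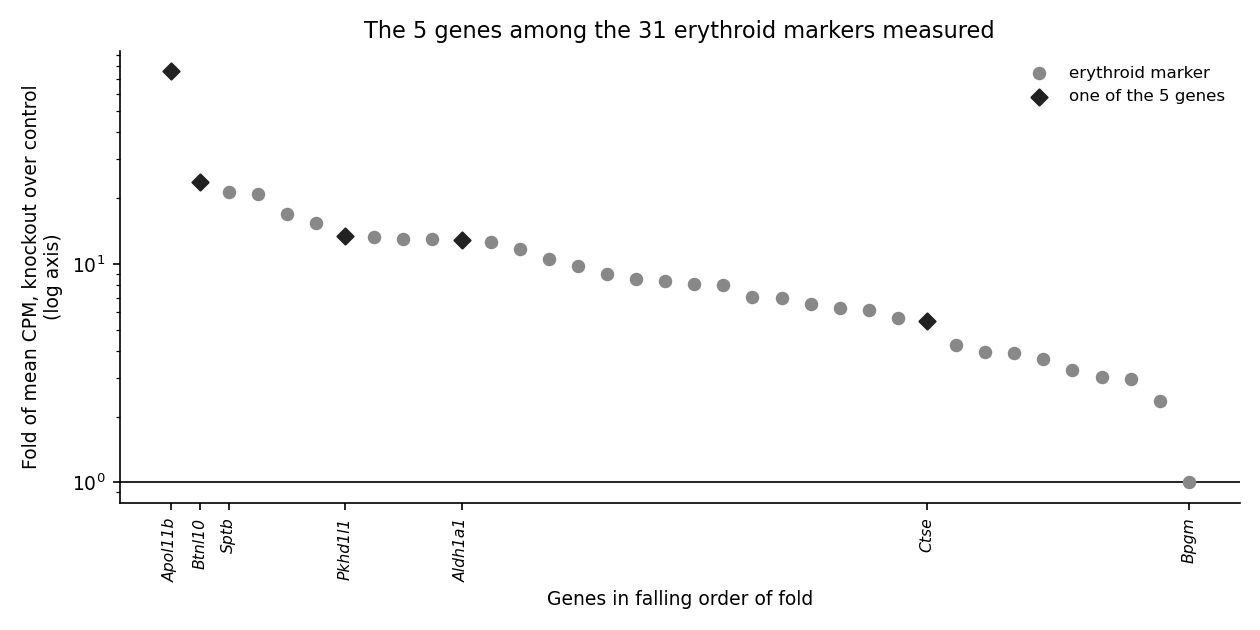
Fold of the mean CPM (knockout over control, log axis) of the 5 genes as diamonds and of the 31 erythroid markers as circles, in falling order, with a line at 1 and with names for the 5 genes, Sptb and Bpgm. Apol11b (75.9) and Btnl10 (23.8) lie above the highest marker, Sptb (21.3), and Ctse (5.46) lies among the lower markers. The 5 genes were chosen on this contrast, so nothing is read from the order.

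Markers of other cells that a magnetic sort of spleen could hold were mostly not higher. The T cell markers had a median log2 fold change of -0.45, with 17 of 18 below 0 and 0 called. In 16 of them both knockout libraries lay below all controls, and Cd8b1 (log2 fold change -0.94, adjusted p = 0.021 from edgeR) passed on p and missed the threshold on size. The medians were -1.05 for B cell and plasma cell, -0.65 for macrophage, monocyte and granulocyte, -1.35 for NK cell, -0.78 for mast cell, basophil and eosinophil, and -0.13 for endothelial and stromal markers. They were above 0 for megakaryocyte and platelet (0.41), blood stem and progenitor cell (0.87) and dendritic cell markers (0.90). In each of these lists 0 genes were called by edgeR. At an unadjusted p under 0.05 there were 11 T cell, 3 NK cell, 3 dendritic cell and 2 megakaryocyte and platelet markers, with 1 or 0 in each other list. DESeq2 called 1 megakaryocyte and platelet marker higher and 1 NK cell marker lower. Some scarce megakaryocyte and progenitor markers passed the filter on low counts only with the knockout libraries. Among them were Gp9 (3, 10 and 0 counts in the controls, 43 and 49 in the knockout) and Hoxa9 (9, 13 and 2 against 14 and 21). The part of such markers in the medians above 0 and in these numbers of markers says nothing about direction. The B cell and plasma cell markers summed to 1189, 570 and 497 CPM in the controls and 1432 and 1042 CPM in the knockout libraries, and the dendritic cell markers to 116, 186 and 29.0 CPM against 204 and 111 CPM. Their part in the levels of the 5 genes was not tested.

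The relatives of Apol11b were examined next. Of 13 apolipoprotein L genes listed beside it, 10 were tested and the other 3 were at 0 in all libraries, and edgeR called 3 higher and 0 lower. The median log2 fold change of the 10 was 1.66. Apol11a and Apol10a passed the filter on low counts through the knockout libraries alone. They could come out higher or go untested, so their calls and their part in this median say nothing about direction. Apol8 had 27, 37 and 10 counts in the controls and 448 and 506 in the knockout, and rose from 0.793 ± 0.206 CPM (SD, n = 3) to 13.0 ± 1.81 CPM (SD, n = 2), a log2 fold change of 4.0 with a standard error of 0.319 (adjusted p = 0.0069 from edgeR). Apol11a, the gene most like Apol11b by name, had 4, 0 and 0 counts in the controls and 556 and 418 in the knockout. The ratio of its rates was 294, with a 95% counting interval of 115 to 1082 (adjusted p = 0.0084). Apol10a had 0, 0 and 0 counts in the controls and 209 and 160 in the knockout, and was at least 42.5-fold higher with the limit of 3 counts in each control library (adjusted p = 0.010). Some of the counts of Apol11a and Apol10a could be reads of Apol11b, with which they share 119 and 91 of its 2605 transcript words of 75 bases, or the reverse. Apol8 shares none of them.

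Other relatives were not called by edgeR. Apol10b had 42, 28 and 24 counts in the controls and 151 and 136 in the knockout, and its log2 fold change was 1.79 with an adjusted p of 0.071. It passed with DESeq2 (adjusted p = 0.0030), which called 4 of these relatives, and with edgeR on genes of at least 10 counts in every library (adjusted p = 0.040). Apol9b had a log2 fold change of 1.55 (adjusted p = 0.23). The family members with the highest levels in the controls, Apol7e at 128 ± 18.7 CPM and Apol7b at 35.6 ± 11.4 CPM (SD, n = 3), had log2 fold changes of -0.26 and -0.59, and Apol7c had 0.44, none of which passed the test. The 3 genes called each had a control mean under 1 CPM, and so had Apol9a, Apol9b and Apold1, which were not called.

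Along the chromosome, 11 genes within 250 kb of the start of Apol11b were tested. Apol8 starts 113717 bases upstream of Apol11b, and Apol11a and Apol10a start 135015 and 166239 bases downstream. Between them, the relatives Apol9b, Apol7e, Apol10b and Apol7c were not called by edgeR, with log2 fold changes of 1.55, -0.26, 1.79 and 0.44. Myh9, the non-muscle myosin gene at the edge of the cluster, was not called either (log2 fold change -0.08). DESeq2 called 4 of the 11 genes, with Apol10b as the fourth, and 5 of the 11 had an unadjusted p under 0.05 from edgeR. Around the other 4 genes, 1 gene was called: Aldh1a7, which starts 234847 bases downstream of Aldh1a1. Of the 10 genes tested within 250 kb of Btnl10, the 4 near Pkhd1l1 and the 5 near Ctse, 0 were called by edgeR or DESeq2, and 1, 0 and 1 of them had an unadjusted p under 0.05.

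**Figure D4:**
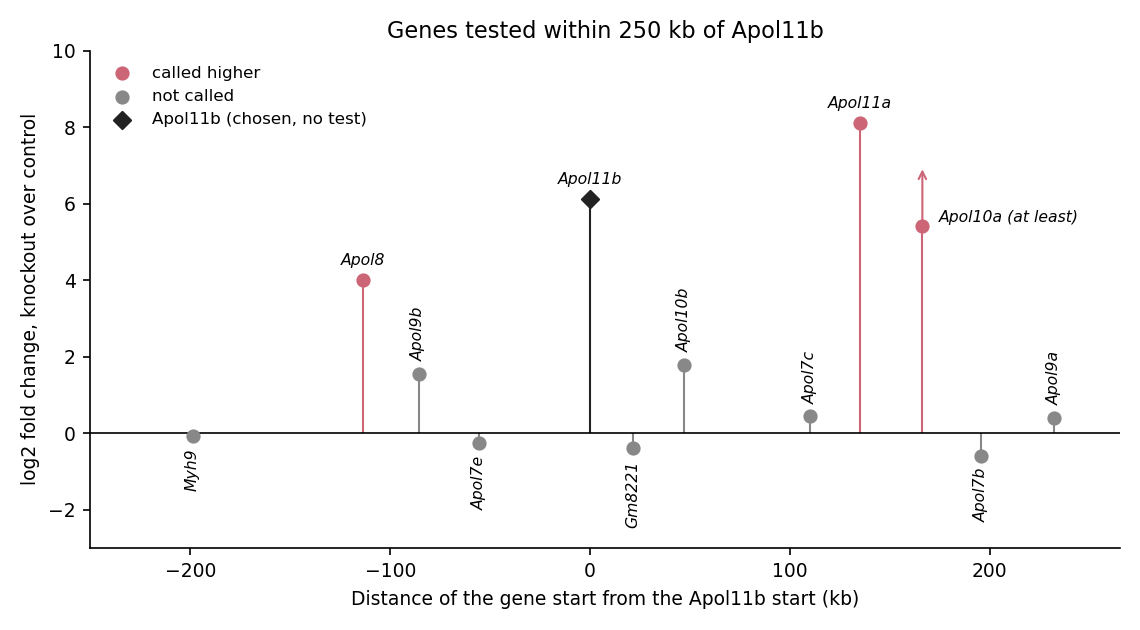
Log2 fold change (knockout over control) of Apol11b and the 11 genes tested within 250 kb, against the distance of the gene start from the Apol11b start in kb, with downstream to the right. Red points were called higher and grey points were not called. Apol10a is drawn at its lower bound with an arrow since its controls were at 0. Between the called genes lie genes near a log2 fold change of 0 and the uncalled Apol9b (1.55) and Apol10b (1.79).

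Among 9 butyrophilin relatives of Btnl10, 3 passed the filter on low counts and 1 was called. Ermap, which carries the Scianna blood group and is also one of the erythroid markers, had 638, 784 and 162 counts in the controls and 5337 and 5530 in the knockout. It rose from 16.3 ± 5.82 CPM (SD, n = 3) to 148 ± 11.6 CPM (SD, n = 2), a log2 fold change of 3.16 with a standard error of 0.291 (adjusted p = 0.0084 from edgeR). Btnl2 and Btnl6 were not called, at 7 to 30 and 0 to 17 counts per library. Pkhd1, the relative of Pkhd1l1, was at 0 counts in all 5 libraries.

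For Ctse, 18 genes of aspartic proteases and cathepsins were listed, of which 16 were tested and 0 called. By unadjusted p under 0.05 there were 4, and with DESeq2 there was 1, Bace2. The abundant lysosomal proteases Ctsd (438 ± 87.7 CPM in the controls, SD, n = 3), Ctsb and Ctss had log2 fold changes of -0.17, -0.00 and -0.16. Ctsw, a cathepsin of cytotoxic lymphocytes, had a log2 fold change of -0.93 with an adjusted p of 0.048, which passed on p and missed the threshold of 1 on size. Bace2 had 0, 0 and 0 counts in the controls and 25 and 20 in the knockout, at least 5.19-fold higher (adjusted p = 0.067). It passed the filter on low counts through the knockout libraries alone, so it could not come out lower.

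Of 29 genes that make, carry, break down or sense retinoic acid, listed for Aldh1a1, 19 were tested, 1 was called higher and 1 lower. The median log2 fold change was -0.20. Aldh1a7, a close paralog of Aldh1a1, had 32, 26 and 11 counts in the controls and 140 and 199 in the knockout, and rose from 0.757 ± 0.0937 CPM (SD, n = 3) to 4.63 ± 1.38 CPM (SD, n = 2), a log2 fold change of 2.60 with a standard error of 0.365 (adjusted p = 0.020 from edgeR). Since it shares 50 transcript words of 75 bases with Aldh1a1, part of its counts could come from Aldh1a1 reads. Adh1, an alcohol dehydrogenase that oxidises retinol, had 267, 240 and 97 counts against 93 and 76, and fell from 6.64 ± 0.569 CPM (SD, n = 3) to 2.28 ± 0.203 CPM (SD, n = 2), a log2 fold change of -1.54 with a standard error of 0.278 (adjusted p = 0.042 from edgeR). The other retinaldehyde dehydrogenases were scarce, with 0 to 22 counts per library for Aldh1a2 and 0 for Aldh1a3. The receptors Rara (-0.55), Rarg (-0.46), Rxra (-0.54) and Rxrb (-0.20) had log2 fold changes below 0 that did not pass the test.

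In all, 6 relatives were called by edgeR and 8 by DESeq2. Apol11a and Apol10a among the 6, and Bace2 among the 8, could not come out lower, as they passed the filter through the knockout libraries alone. Without control replicate 1 or without knockout replicate 2, 0 of the 6 remained at an adjusted p under 0.05, and without knockout replicate 1 there were 3. The call on Adh1 was also lost without control replicate 3. Over these fits and the other alternatives, the log2 fold changes of the 6 genes kept their sign. The groups of each did not overlap, so leaving out a library could not turn the sign.

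The genes whose profiles over the 5 libraries lay closest to each of the 5 were named by the root mean square difference of centred log2 CPM, among 12758 genes of at least 1 CPM. These profiles follow the genotype first, so the likeness is a description of these libraries. The difference is not scaled to the spread of a gene, so it depends on the size of the fold, on which the 5 genes were chosen. Nothing is therefore read from how near or far the closest genes lie. For Pkhd1l1 the closest were the unclassified transcript Gm37527 (0.200), the erythroid transcription factor Sox6 (0.209) and the mitochondrial transporter Abcb10 (0.223). For Aldh1a1 they were Sox6 (0.209), the adaptor Garem1 (0.237) and Gm37527 (0.251). Pkhd1l1 and Aldh1a1 were closer to each other (0.144) than to any of these, and shared 2 of their 3 neighbours.

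For Btnl10 the closest profiles were those of the proteoglycan gene Esm1 (0.249), Phyhip (0.401) and the beta-spectrin gene Sptb (0.437). For Ctse they were the chemokine receptor-like gene Ccrl2 (0.0894), Rgs12 (0.112) and the non-muscle myosin gene Myh10 (0.117). Apol11b had no close neighbour: its nearest were the sialomucin gene Podxl (0.864), Apol11a (0.913) and Erfe (0.915), the gene of the hormone erythroferrone that erythroblasts secrete. Podxl stood at 0.783, 0.913 and 0 CPM in the controls and 13.0 and 12.2 CPM in the knockout, low in control replicate 3 as Apol11b was. Of the 15 places, 3 were taken by genes of the erythroid list, with Sox6 counted for both Pkhd1l1 and Aldh1a1. The places were unsteady: without control replicate 3, 3 of the 15 were kept.

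In J.gamma1 cells, whose libraries the choice did not use, the orthologs of the genes were at or near 0. PKHD1L1 had 0 and 2 counts with sh-NC and 0 and 7 with sh-IRF2BP2, CTSE had 3 and 0 against 0 and 0, and ALDH1A1 had 0 and 0 against 4 and 4, in libraries of 26648204 to 31120236 counts. None of the 3 passed the filter on low counts, so a difference was not detectable at this depth, and no test was made. Apol11b and Btnl10 were not matched to a human gene. Among 7 human APOL genes, 5 were tested and 2 were called higher, here with a change of at least 0.5 on the log2 scale beside the same limit on p, a rule by which 5.46% of 15819 genes were higher and 5.01% lower. APOL6 had 1398 and 1406 counts with sh-NC and 2208 and 2389 with sh-IRF2BP2, and rose from 49.7 ± 6.13 CPM to 78.4 ± 3.69 CPM (SD of 2 libraries in each group), a log2 fold change of 0.66 with a standard error of 0.131 (adjusted p = 0.020 from edgeR). APOL1 had 65 and 80 counts against 178 and 143, and rose from 2.54 ± 0.0482 CPM to 5.48 ± 0.892 CPM (SD of 2 libraries in each group), a log2 fold change of 1.11 with a standard error of 0.278 (adjusted p = 0.043 from edgeR). APOL3 (0.43), APOL2 (0.07) and APOLD1 (-0.97) did not pass. The 7 human butyrophilin genes tested of 12 listed had 0 calls by edgeR and 2 at an unadjusted p under 0.05, and BTN2A1 had a log2 fold change of 0.46 with an adjusted p of 0.054. The calls on the APOL genes were few and unsteady: without either sh-IRF2BP2 library, or with every gene of at least 1 count in any library, there were 0, and APOL1 also lost its call without either sh-NC library.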

How the data were processed

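Per the labels and the study's methods, the authors aligned the reads with HISAT2 2.2.0 to mm10 or hg38 and estimated abundance with StringTie. The authors deposited whole-number counts for each Ensembl gene in each library, neither normalized nor pooled. The step from StringTie to counts, and any use of the strand, is not given in the sources used here.

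Rows with an identifier in GENCODE M21 (42462 of 43432) or GENCODE 44 (56105 of 64252) were kept, and genes passing filterByExpr were TMM-scaled and fitted in edgeR 4.0.16 (glmQLFit, then glmQLFTest, genotype or hairpin as the term) under R 4.3.3, with adjustment by the Benjamini-Hochberg method. A call required an adjusted p below 0.05 together with a log2 fold change whose size reached 1 in the mouse or 0.5 in the human cells. Where replicates came from is not stated, so p-values measure the spread between these libraries, which may be technical. Replicates differed by more than sampling noise (chi-square per gene of at least 19.5). The biological coefficient of variation was 0.271 in the mouse and 0.165 in the human cells. The fit was tested on simulated counts.

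CPM used TMM-scaled library sizes, TPM used exon lengths of GENCODE M21, and profiles used log2 CPM with a prior count of 2. Fold limits against 0 used 3 counts per library, and the ratio of rates has an exact interval of 95%.

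The 5 genes were chosen on the knockout contrast, and they and the lists of relatives and markers were chosen with earlier results of these data known. The genes named are the 5 genes, the list genes (some of which are not reported by name here), the 3 closest profiles of each (mean of at least 1 CPM) and Irf2bp2. The genes within 250 kb were added after values were seen, and Myh9 was chosen from them. The levels per erythroid marker sum were added later in the same way. The alternatives were DESeq2 1.42.0, other scalings and filters, all rows, a block on the replicate number, leaving out each library, other prior counts, no fold threshold and, chosen after the data were seen, counts divided by 2.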

Additional observations from a re-analysis of the deposited data

How the results depend on the processing

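The log2 fold changes of the 5 genes kept their direction under each of the 15 to 16 alternatives run. As their groups did not overlap, leaving out a library could not turn the direction. The values ran from 5.74 to 6.71 for Apol11b, 4.17 to 4.81 for Btnl10 and 3.47 to 3.91 for Pkhd1l1. For Ctse they ran from 2.31 to 2.53 and for Aldh1a1 from 3.59 to 3.81. Apol11b was absent from the filter of at least 10 counts in every library. Calls over all genes changed with the tool and the libraries. Of 379 genes higher and 17 lower with edgeR, DESeq2 gave 735 and 66. With 1 library left out the counts ranged from 6 to 532 higher and from 1 to 35 lower, with 6 and 1 without control replicate 1, 47 and 3 without knockout replicate 1, 9 and 1 without knockout replicate 2, 532 and 35 without control replicate 2 and 357 and 32 without control replicate 3. With 1 library left out, relatives called ranged from 0 to 7 around 6 and markers called from 3 to 25 around 19, and DESeq2 gave 8 and 27; where a lone knockout library was left, it was assumed to vary like the controls. With the replicate number as a block, 407 genes were higher and 35 lower, and the calls on Aldh1a7 and Adh1 were lost. The pairing check gave correlations of deviations from the group means of 0.15 and -0.16 in the mouse. With 2 knockout libraries their deviations mirror each other, so this check cannot decide whether the numbers pair the samples. The levels per erythroid marker sum, with the globins left out or counted in, and counts divided by 2, were chosen after seeing the data. With counts divided by 2, 447 genes were higher and 21 lower. APOL and butyrophilin calls in J.gamma1 cells ranged from 0 to 4 around 2. Without control replicate 3, 3 of the 15 closest profiles were shared with those over all 5 libraries. The causes of these changes were not tested. The number of 2 knockout libraries against 3 controls, and the depth of control replicate 3, limit all of these values.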
